A study of Mus musculus with 36 samples.

Results

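Mrtfa and Mrtfb encode the myocardin-related transcription factors MRTF-A and MRTF-B, and Srf encodes serum response factor, the DNA-binding protein through which both act. These 3 genes were read from the deposited count table by matching its Ensembl IDs to mouse symbols, and are 3 of its 32285 mouse gene IDs. RNA was sequenced from AT-3 and E0771, mouse breast cancer cell lines from an MMTV-PyMT mammary tumour and a mammary adenocarcinoma respectively. In each line 6 treatments of 24 h were compared, with 3 libraries each and 36 libraries in all: DMSO as the vehicle control, 10 µM NS11021, 10 µM BMS204352, 40 mM KCl, KCl with NS11021, and KCl with BMS204352. Both compounds are known as openers of the calcium-activated BK channel (gene Kcnma1), and BMS204352 is known to open KCNQ channels as well. No group with another salt or osmolyte is among the labels, so effects of potassium, chloride and osmolarity cannot be told apart. The labels do not say whether replicates were separate cultures, so p-values measure only the spread between these libraries, which may be technical. In bulk RNA a change in the make-up of the culture and a change of RNA per cell cannot be told apart.

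MRTFs bind monomeric actin through their RPEL motifs and are held in the cytoplasm while monomers are plentiful. When actin is driven into filaments, MRTFs are released, enter the nucleus and join SRF at CArG boxes, where they raise transcription of actin, myosin, focal adhesion and matricellular genes. SRF also works with ternary complex factors (Elk1, Elk3 and Elk4), which respond to MAP kinase signalling and drive immediate early genes such as Fos and Egr1.

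On GRCm38 with the GENCODE vM21 annotation, Mrtfa (ENSMUSG00000042292) lies on the minus strand at chr15:81012281-81190757 and has 6114 exon bases. Mrtfb (ENSMUSG00000009569) lies on the plus strand at chr16:13256481-13417529 and has 8990 exon bases, and Srf (ENSMUSG00000015605) lies on the minus strand at chr17:46548329-46556175 and has 2893. Opposite-strand genes share 0.164% of the exon bases of Mrtfa (Sgsm3) and 1.80% of those of Mrtfb (Gm15738), and no annotated gene shares any of Srf. The counting strand is not given in the sources used here, so reads from those shared bases cannot be assigned to a strand.

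The Srf promoter is shown because Srf is both the partner of the MRTFs and, by its letters, a gene with CArG boxes of its own, and a Mrtfa promoter is shown beside it because Mrtfa was the member that changed most often. Both are the 250 bases before a RefSeq transcript start on GRCm38.p6, minus strand, at chr17:46556163-46556412 for Srf and chr15:81190737-81190986 for Mrtfa, written 5′ to 3′ with CArG boxes in capitals.
Srf: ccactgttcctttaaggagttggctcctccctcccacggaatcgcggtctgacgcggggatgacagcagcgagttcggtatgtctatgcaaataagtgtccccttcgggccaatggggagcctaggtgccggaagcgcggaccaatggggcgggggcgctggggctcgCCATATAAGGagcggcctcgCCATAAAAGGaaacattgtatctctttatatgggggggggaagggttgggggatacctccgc
Mrtfa: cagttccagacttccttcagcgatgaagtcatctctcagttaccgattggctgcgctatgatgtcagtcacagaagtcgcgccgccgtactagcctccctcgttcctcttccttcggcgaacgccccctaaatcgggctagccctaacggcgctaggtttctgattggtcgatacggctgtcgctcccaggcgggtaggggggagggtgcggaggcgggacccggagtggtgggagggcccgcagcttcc
The Srf window held 2 CArG boxes, CCATATAAGG at 82 to 73 bases before the start and CCATAAAAGG at 62 to 53 bases before it. Both strands were searched for the CArG box and for 3 other motifs. These were TGACG, the core of the cyclic AMP response element, then TGGAAA, the core bound by NFAT factors, and last CCGGAAG, an Ets core of the kind that ternary complex factors bind. No site found overlapped another. Srf also held 1 cyclic AMP response element core and 1 Ets core. Neither of the 2 Mrtfa windows held any of the 4 motifs, and the 3 Mrtfb windows held 1 cyclic AMP response element core between them, which says only that the other letters are not in these windows. Of 32851 RefSeq promoter windows of this length, 1.47% held a CArG box and 6, or 0.0183%, held at least 2: those of Srf, Dusp5, Ceacam11, Gm33934 and 2 windows of Gm39572. The cyclic AMP, NFAT and Ets cores occurred in 17.8%, 18.6% and 6.91% of windows. A match is a description of letters, not of binding.

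AT-3 libraries held between 38.5 and 52.6 M counts, and E0771 libraries between 31.2 and 47.9 M. Counts per library ran from 1978 to 6624 over the 3 genes, so counting error alone was 1.23% to 2.25% of a value, below the spread between replicates in most groups. AT-3 expressed 8 of 11 epithelial markers at 1 CPM (counts per M of the library total) or more, while E0771 did so for Krt8 only, with summed epithelial levels of 2672 to 3840.0 and 139.7 to 228 CPM. Of 11 mesenchymal or fibroblast markers, 7 reached 1 CPM in AT-3 and 6 in E0771. Their sums were 5108 to 12510 CPM in AT-3 and 3859 to 4861 CPM in E0771. The muscle markers, which include Myocd, the muscle member of the MRTF family, summed to at most 1.25 CPM in AT-3 and 4.80 CPM in E0771, and Myocd was at 0 in every E0771 library. Replicate 3 stood apart in the BMS204352 groups. On the first principal component of AT-3, which held 16.2% of the variance, it lay at 65.9 with BMS204352 against 17.2 and 22.1 for the other libraries, and at 30.1 with KCl and BMS204352 against −3.16 and 1.31. In E0771 with BMS204352 it lay at −30.2 on the third component (5.43% of the variance) against −3.37 and 1.07. In E0771 with KCl and BMS204352 it lay at −15.2 on the second component (9.82% of the variance) against −0.179 and −3.93. On the first component of E0771 that library was not apart, at 11.3 against 11.3 and 15.6. Calls on the 3 genes that changed without replicate 3 of the BMS204352 groups, which removes 4 libraries over both lines, are given both ways, as are most list counts. Values of single list genes are given with all libraries.

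All 3 genes were well expressed in both lines, and the balance between them differed. Per kb of exon and with DMSO, Srf had the highest level in each line, at 34.0 ± 3.60 CPM per kb (SD, n = 3) in AT-3 and 47.0 ± 1.31 in E0771. Mrtfa followed at 14.1 ± 1.26 in AT-3 and 10.1 ± 0.687 in E0771, and Mrtfb was lowest at 7.53 ± 1.65 and 6.70 ± 0.413. The lines were compared in a fit to all 36 libraries with edgeR's quasi-likelihood test, with p-values adjusted by Benjamini-Hochberg over 15969 genes and a threshold of 0.05. On the log2 scale, E0771 with DMSO differed from AT-3 by −0.48 ± 0.09 (SE) for Mrtfa (adjusted p = 2.08e-05) and by 0.47 ± 0.12 for Srf (adjusted p = 0.000954), while Mrtfb differed by −0.17 ± 0.13 (adjusted p = 0.256). Thus Mrtfa was lower and Srf higher in E0771. The lines differed in 74.5% of all tested genes, so 2 called members of 3 is near that background. Of the 37 MRTF-SRF target genes listed, 7 were higher and 23 lower in E0771, beside 34.1% and 40.4% of all genes, with a median difference of −0.90 against −0.09 for all genes.

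**Figure D1:**
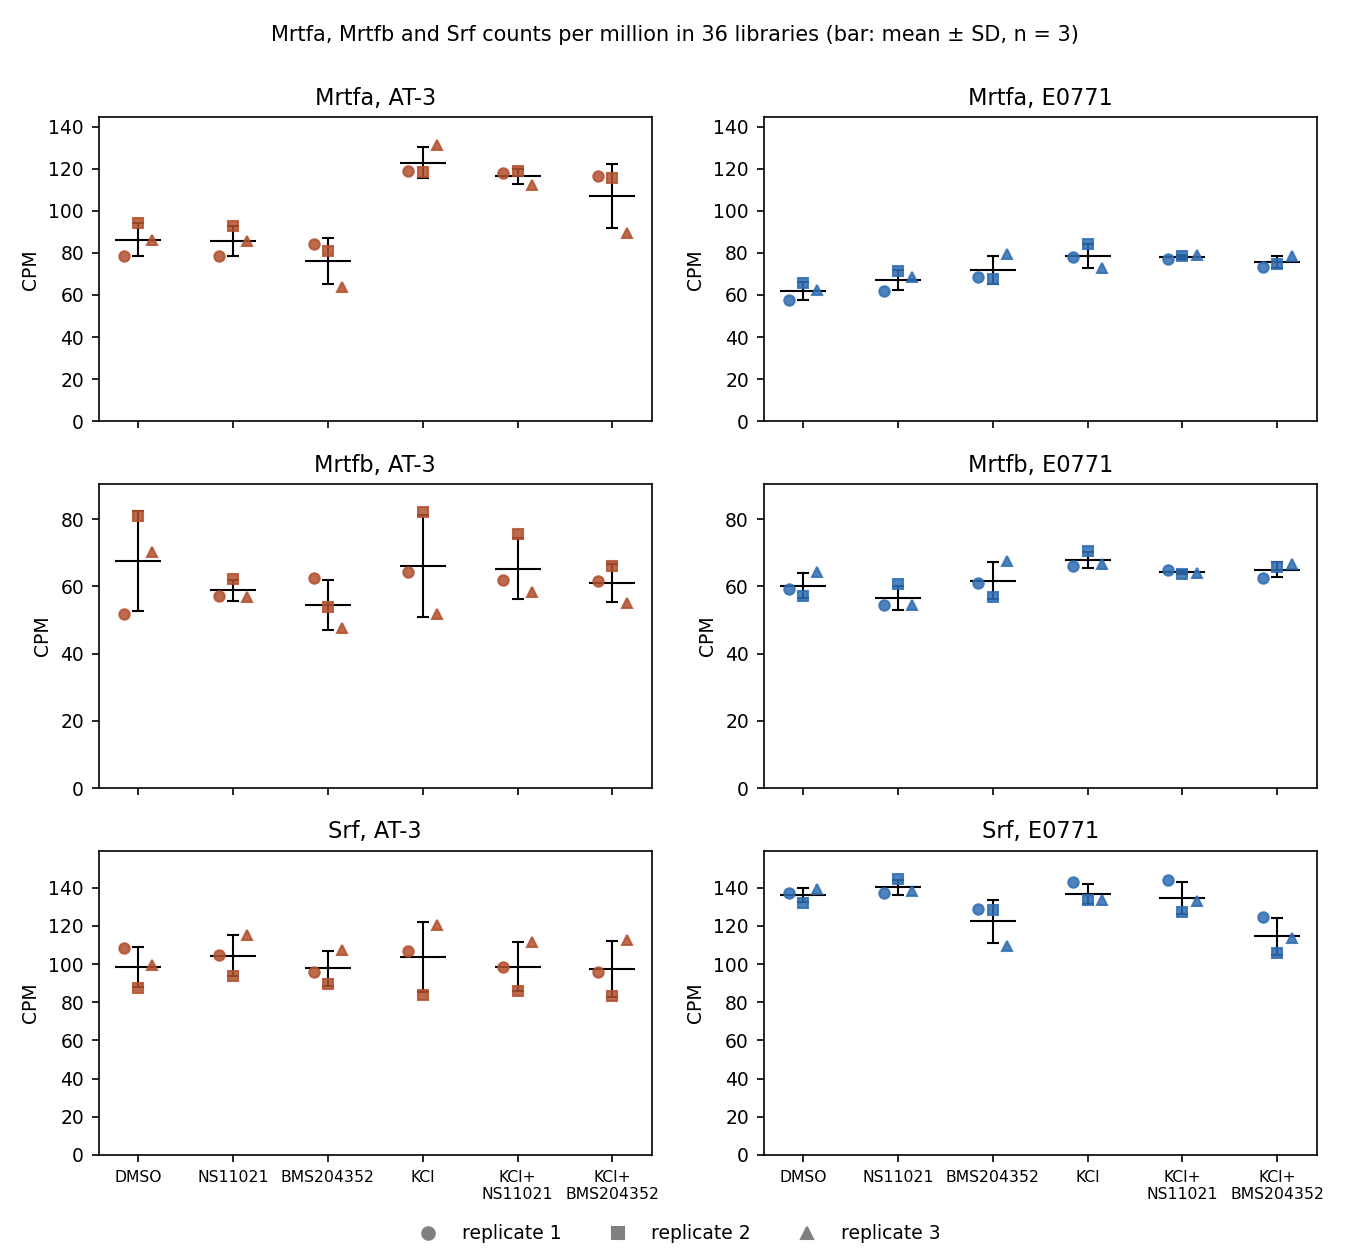
CPM (counts per M of the library total, linear axis from 0) of Mrtfa, Mrtfb and Srf in each library of AT-3 (left) and E0771 (right), by treatment. Symbols mark the replicate number, and the bar gives the mean ± SD of 3 libraries. Mrtfa sat higher in the KCl groups, with 8 of 9 KCl libraries of AT-3 but 1 of 9 of E0771 above all 9 of the line without KCl, and Srf of E0771 was lowest with KCl and BMS204352.

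Mrtfa was higher with KCl in both lines. In AT-3 the DMSO libraries had 78.6, 94.0 and 86.2 CPM and the KCl libraries 119, 119 and 131 CPM. The groups did not overlap. How many of all genes had groups without overlap was not counted, so non-overlap is only a description here and below. The mean of Mrtfa rose from 86.3 ± 7.71 to 123 ± 7.29 CPM (SD, n = 3). In the fit to the 18 AT-3 libraries this was a log2 change of 0.52 ± 0.10 (SE), 1.43-fold, with an adjusted p of 0.00453 by edgeR over 14772 genes. Mrtfa ranked 199 by p among them, and its change was larger than that of 91.8% of tested genes. In that comparison 4.83% of all genes passed, and Mrtfa was the only member of the 3 that did. The call held in each of 13 alternatives, with log2 changes from 0.45 to 0.58.

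In E0771 Mrtfa had 57.4, 65.8 and 62.4 CPM with DMSO and 78.1, 84.1 and 72.9 CPM with KCl. These groups did not overlap either, and the log2 change was 0.35 ± 0.07, 1.28-fold (edgeR adjusted p = 9.63e-05). In this comparison 36.4% of 13357 tested genes passed, in a fit with a smaller spread between replicates than that of AT-3, and Mrtfa ranked 1600 by p among them. Here 2 of 3 members passed. The KCl effects on Mrtfa in the lines differed by −0.17 ± 0.13 (E0771 minus AT-3, adjusted p = 0.484), with a 95% interval of −0.44 to 0.09, and 9.13% of genes differed between the lines in this effect.

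The raised level of Mrtfa was also seen when a compound was added to KCl. In AT-3 it had 118, 119 and 112 CPM with KCl and NS11021, none overlapping DMSO, and the log2 change from DMSO was 0.44 ± 0.10 (edgeR adjusted p = 0.0141, 5.03% of genes called). That call was lost without DMSO replicate 1 or 3 or without replicate 1 or 2 of KCl with NS11021, with adjusted p between 0.0621 and 0.0880. With KCl and BMS204352 in AT-3 the levels were 116, 116 and 89.6 CPM, replicate 3 falling inside the DMSO range. The log2 change from DMSO was 0.31 ± 0.10 and missed the threshold (edgeR adjusted p = 0.0507, 13.1% of genes called), and without replicate 3 of the BMS204352 groups it was 0.41 with an adjusted p of 0.000363. Over all AT-3 groups, the 9 libraries with KCl ran from 89.6 to 131 CPM with a median of 118, and the 9 without KCl ran from 63.8 to 94.0 CPM with a median of 84.2. In E0771 the 9 libraries with KCl ran from 72.9 to 84.1 CPM with a median of 78.1, and the 9 without KCl from 57.4 to 79.6 CPM with a median of 67.5.

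In E0771 Mrtfa had 76.9, 78.4 and 78.9 CPM with KCl and NS11021, and 73.1, 74.8 and 78.6 CPM with KCl and BMS204352. Both groups lay above every DMSO library. The log2 changes from DMSO were 0.35 ± 0.07 (edgeR adjusted p = 0.000103, 38.6% of genes called) and 0.29 ± 0.07 (edgeR adjusted p = 0.0014, 28.6% called), the latter 0.26 (adjusted p = 0.00152) without replicate 3 of the BMS204352 groups. The 3 KCl comparisons of a line share the DMSO libraries, so they are not separate evidence. Adding NS11021 to KCl gave Mrtfa a change of −0.0028 ± 0.07 against KCl alone in E0771, with an interval of −0.14 to 0.13, and adding BMS204352 gave −0.06 ± 0.07, with an interval of −0.20 to 0.07. In AT-3 these changes were −0.08 ± 0.10 and −0.21 ± 0.10 (edgeR adjusted p = 1 and 0.303), in comparisons where 0.0203% and 1.24% of genes passed. The interaction of KCl and BMS204352 on Mrtfa in E0771 was −0.29 ± 0.09 (edgeR adjusted p = 0.126, 1.62% of genes called; −0.24 and 0.172 without replicate 3 of the BMS204352 groups), and that of KCl and NS11021 was −0.12 ± 0.09 (edgeR adjusted p = 0.743, 0.217% called). In AT-3 the interactions of KCl were −0.04 with BMS204352 and −0.08 with NS11021, in comparisons where 0% of genes passed.

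Without KCl, the fitted changes of Mrtfa with each compound were smaller in size than the change with KCl alone in the same line. NS11021 gave 78.7, 92.7 and 85.5 CPM in AT-3, a log2 change of 0.0044 ± 0.10 with an interval of −0.21 to 0.22, and 0.0745% of genes passed. In E0771 it gave 61.8, 71.2 and 68.6 CPM, a log2 change of 0.12 ± 0.07 (edgeR adjusted p = 0.197), and 26.3% of genes passed. BMS204352 gave 84.2, 81.0 and 63.8 CPM in AT-3, a log2 change of −0.17 ± 0.10 (edgeR adjusted p = 0.357), where 5.27% of genes passed. In E0771 BMS204352 gave 68.6, 67.5 and 79.6 CPM, above every DMSO library, and Mrtfa rose by 0.22 ± 0.07 (edgeR adjusted p = 0.0151, 22.7% of genes called). Without replicate 3 of the BMS204352 groups the change was 0.14 with an adjusted p of 0.113. The call was also lost without DMSO replicate 1 (0.18, adjusted p = 0.107) and in a fit to the 6 libraries compared (0.22, adjusted p = 0.0604). The BMS204352 effects on Mrtfa in the lines differed by 0.38 ± 0.13 (edgeR adjusted p = 0.0788, 5.01% of genes called), and by 0.21 (adjusted p = 0.329) without replicate 3 of the BMS204352 groups.

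Mrtfb, whose product is the closest relative of MRTF-A, had smaller fitted changes with KCl than Mrtfa in both lines. Whether the changes of these genes differed was not tested. In E0771 Mrtfb had 59.3, 57.1 and 64.3 CPM with DMSO and 66.1, 70.5 and 66.7 CPM with KCl, groups that did not overlap. The log2 change was 0.18 ± 0.06, 1.13-fold (edgeR adjusted p = 0.0263), in a comparison where 36.4% of all genes passed. The gap between the highest DMSO and the lowest KCl library was small, and the call was lost without DMSO replicate 1 or 2 or KCl replicate 2, with adjusted p from 0.0798 to 0.139. In E0771 the KCl+NS11021 libraries had 64.9, 63.8 and 64.0 CPM and the KCl+BMS204352 libraries 62.7, 65.8 and 66.7 CPM. Their changes from DMSO were 0.11 ± 0.06 for each (edgeR adjusted p = 0.199 and 0.210, 38.6% and 28.6% of genes called). NS11021 alone gave 54.5, 60.8 and 54.4 CPM and BMS204352 alone 61.1, 56.8 and 67.5 CPM, both overlapping DMSO.

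In AT-3 Mrtfb spread widely within groups. It had 51.7, 81.1 and 70.2 CPM with DMSO, 64.2, 82.3 and 52.0 CPM with KCl, and 62.0, 75.5 and 58.3 CPM with KCl and NS11021. NS11021 gave 57.2, 62.3 and 57.0 CPM, BMS204352 gave 62.4, 53.8 and 47.5 CPM, and KCl with BMS204352 gave 61.6, 66.2 and 55.1 CPM. All 6 groups overlapped one another, and no comparison of Mrtfb in AT-3 passed. The interval for the KCl change in AT-3, −0.40 to 0.35, holds the E0771 value of 0.18, so the AT-3 data do not show that Mrtfb was without change. The KCl effects on Mrtfb differed between the lines by 0.20 ± 0.19 (edgeR adjusted p = 0.627).

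The ratio of Mrtfa to Mrtfb, per kb of exon in the same library, was 1.92 ± 0.282 with DMSO and 2.85 ± 0.806 with KCl in AT-3 (SD, n = 3), with ranges of 1.70 to 2.24 and 2.12 to 3.72 that overlapped. In E0771 it was 1.51 ± 0.156 and 1.70 ± 0.0813, again with overlapping ranges. Mrtfa thus exceeded Mrtfb per kb in all 12 group means.

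Srf itself did not pass with KCl or with NS11021 in either line. In AT-3 it had 108, 87.6 and 99.6 CPM with DMSO and 107, 83.8 and 120.3 CPM with KCl, a log2 change of 0.08 ± 0.15 with an interval of −0.24 to 0.40. In E0771, where replicates lay closer, it had 137, 132 and 139 CPM with DMSO and 143, 134 and 134 CPM with KCl, a change of 0.02 ± 0.06 with an interval of −0.11 to 0.14. A rise of the size seen for Mrtfa in E0771 lies outside that interval. The 137, 145 and 138 CPM with NS11021 in E0771 overlapped DMSO, and the change was 0.04 ± 0.06.

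Srf was lower where E0771 received BMS204352 together with KCl. Those libraries had 125, 106 and 114 CPM, all below the lowest DMSO library and the lowest KCl library. Against KCl alone the log2 change was −0.26 ± 0.06, 0.833-fold (edgeR adjusted p = 0.00227), in a comparison where 19.9% of all genes passed, with 10.1% lower. Srf ranked 919 by p, and 13.5% of genes had a lower change. Without replicate 3 of the BMS204352 groups the change was −0.26 with an adjusted p of 0.000932. Against DMSO it fell by 0.25 on the log2 scale, with an SE of 0.06 (edgeR adjusted p = 0.00247, 28.6% of genes called), and both calls held in each alternative run. The 2 comparisons share the libraries of KCl with BMS204352.

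BMS204352 without KCl gave Srf levels of 129, 129 and 109.5 CPM in E0771. They too lay below the DMSO range, but the change of −0.15 ± 0.06 missed the threshold (edgeR adjusted p = 0.0754, 22.7% of genes called), and without replicate 3 of the BMS204352 groups it was −0.07 with an adjusted p of 0.391. KCl with NS11021 gave 144, 127 and 133 CPM, a change of −0.02 ± 0.06 from KCl alone, where 17.2% of genes passed. At the same dose and time, Srf was higher with KCl and NS11021 than with KCl and BMS204352 by 0.25 ± 0.06 (edgeR adjusted p = 0.0135, 4.95% of genes called), although the lowest of the first group and the highest of the second were 127 and 125 CPM. That call was lost without replicate 1 of KCl with NS11021 or replicate 2 or 3 of KCl with BMS204352, at adjusted p from 0.0530 to 0.118. Without KCl the difference between the compounds was 0.19 ± 0.06 (edgeR adjusted p = 0.116, 1.76% called), a value that passed without the filter on low counts (0.20, adjusted p = 0.00948) and with the replicate number as a block (0.19, adjusted p = 0.0452). Over both lines the compounds were compared for 3 genes with and without KCl, and of these 12 contrasts Srf in E0771 with KCl was the one that passed in the fit with the filter and without the block. In AT-3 they differed by 0.10 ± 0.15 for Srf, 0.17 ± 0.10 for Mrtfa and 0.11 ± 0.17 for Mrtfb without KCl (2.94% of genes called), and by 0.04, 0.14 and 0.11 with KCl (0.454% called). Their E0771 differences were −0.10 for Mrtfa and −0.13 for Mrtfb without KCl, and 0.06 and −0.0040 with KCl. The interaction of KCl and BMS204352 on Srf was −0.11 ± 0.09 (edgeR adjusted p = 0.622, and 0.260 at −0.18 without replicate 3 of the BMS204352 groups), so the fall with BMS204352 was not shown to differ with and without KCl.

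In AT-3 the Srf levels were 105, 93.7 and 115 CPM with NS11021, 96.0, 89.5 and 108 CPM with BMS204352, 98.6, 85.8 and 112 CPM with KCl and NS11021, and 95.7, 83.3 and 113 CPM with KCl and BMS204352. All 6 groups overlapped, the group means differed by at most 1.07-fold, and no comparison passed. The AT-3 change with BMS204352 on top of KCl was −0.10 ± 0.15 with an interval of −0.42 to 0.22, which holds the E0771 value. The fit behind this interval had no term for the replicate number, which Srf levels followed in AT-3. An interval with such a term is not given here. Under 13 alternatives, the replicate number as a block among them, the change ran from −0.24 to 0.0085 and none passed. Of the 26 comparisons made, each for 3 genes, 12 of 78 results passed, and 8 of those held under every alternative. Over these comparisons the share of all genes that passed ran from 0% to 74.5%, so the count alone does not set these 3 genes apart.

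**Figure D2:**
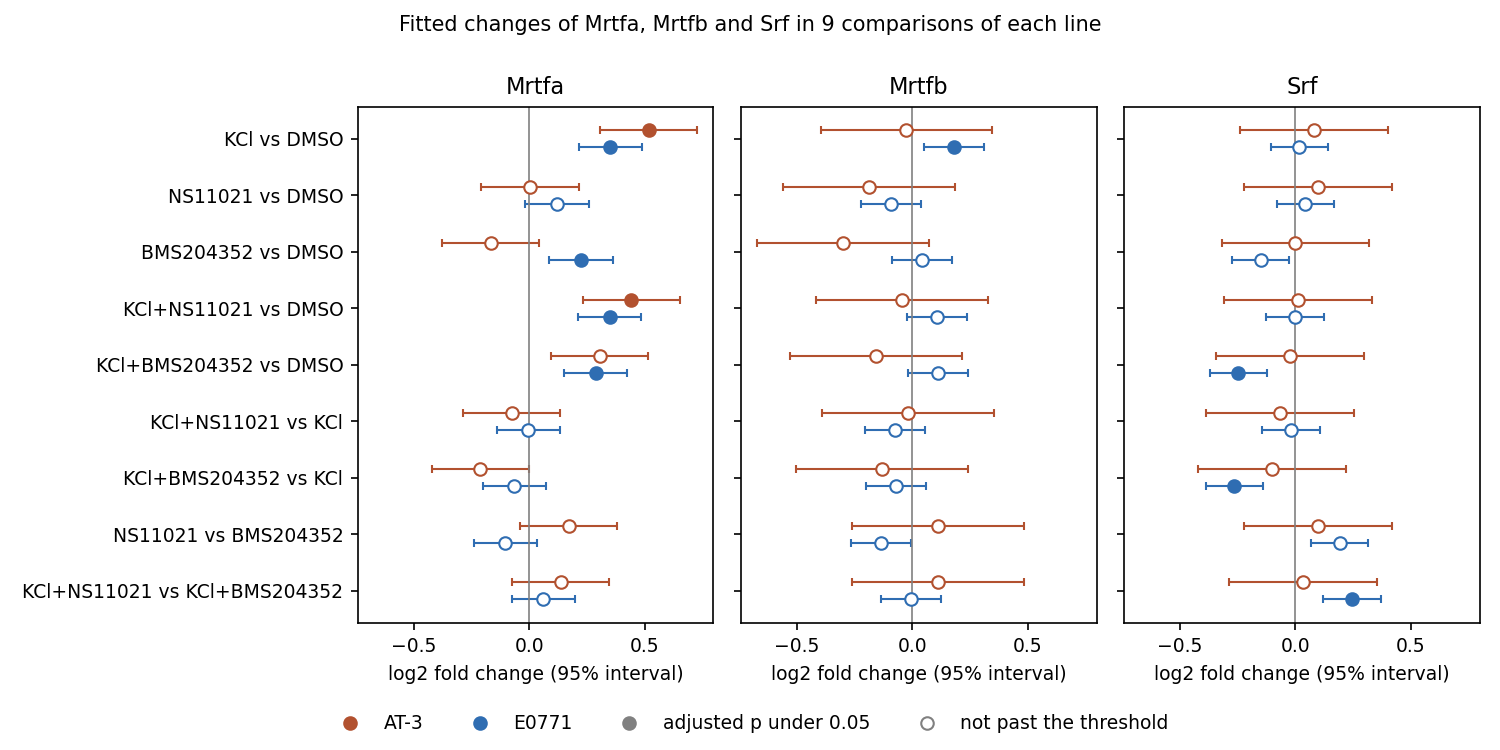
Fitted log2 fold changes of Mrtfa, Mrtfb and Srf in 9 comparisons of AT-3 (brown) and E0771 (blue), with 95% intervals from the edgeR fit of each line; filled points passed an adjusted p of 0.05. The Mrtfa values of the 3 KCl groups against DMSO lie above 0 in both lines, the filled Srf points belong to E0771 groups with KCl and BMS204352, and AT-3 intervals of Mrtfb and Srf are wide.

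The width of the AT-3 intervals went with the replicate number, for which the fits behind them had no term. Srf was lowest in replicate 2 in 6 of 6 AT-3 groups and highest in replicate 3 in 5 of 6, while Mrtfb was highest in replicate 2 in 5 of 6 and lowest in replicate 3 in 5 of 6. An index of long against short transcripts compared the median line-centred log2 level of 4548 genes with at least 6000 exon bases and of 2885 genes under 2000. It was highest in replicate 2 in 5 of 6 AT-3 groups. The index ran from −0.03 to 0.06 with DMSO and from −0.02 to 0.11 with KCl in AT-3. Mrtfb has 8990 exon bases and Srf 2893. The part of transcript length in these values was not tested. In E0771 no replicate number was highest or lowest in more than 4 of 6 groups for any of the 3 genes.

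**Figure D3:**
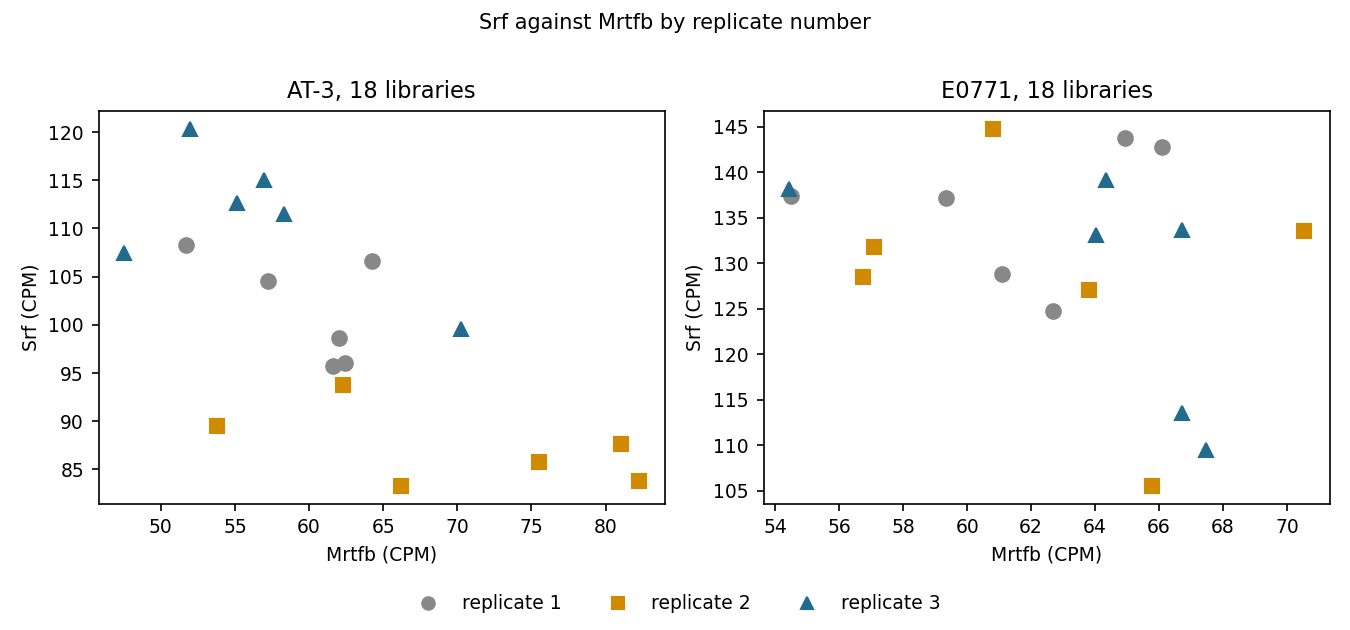
Srf against Mrtfb, both in CPM, in the 18 libraries of AT-3 (left) and of E0771 (right), marked by replicate number. In AT-3 the replicate 2 libraries lie low for Srf, at 83.3 to 93.7 CPM, and the replicate 3 libraries high, at 99.6 to 120.3 CPM, and no such split is seen in E0771.

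Across the 36 libraries, with each line centred on its own mean, Mrtfb and Srf ran in opposite directions, with a Pearson correlation of −0.59 of their log2 levels (−0.72 in the 18 AT-3 libraries and −0.33 in the 18 of E0771). Mrtfa and Mrtfb had a correlation of 0.51, and Mrtfa and Srf −0.23. These are descriptions over libraries that share treatments and replicate numbers. Among 8878 genes, those most like Srf were Wdr1, which promotes actin filament disassembly with cofilin, at 0.83, the cytoplasmic actins Actb at 0.78 and Actg1 at 0.75, Tent5b at 0.75, and the Arp2/3 subunit Actr3 at 0.74. In AT-3 alone they were Actr3, Actg1, Wdr1, Wnt7b and Rcn2, and in E0771 alone Sertad4, the tropomyosin Tpm1, Nek2, Coro1c and the matricellular gene Ccn2.

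The genes most like Mrtfa were the mRNA decay factor Zfp36l1 at 0.89, the lipid kinase Pik3c2a at 0.89, Zmiz2 at 0.88, Apbb2 at 0.87 and paxillin, Pxn, a focal adhesion protein, at 0.86. In AT-3 alone they were Apbb2, Ldlrad4, Limd2, Rbpj and Pik3c2a, and in E0771 alone Hipk1, Zswim6, Ddit4, Serinc3 and Chd2. The genes most like Mrtfb were the coactivator Ncoa6 at 0.89, the acetyltransferases Ep300 and Crebbp at 0.88 each, the chromatin remodeller Srcap at 0.88 and the DNA damage kinase Atm at 0.87. In AT-3 alone they were Zfp704, C2cd3, Ncoa6, Gatad2b and Nsd1, and those of E0771 alone included Srcap, Tnrc6c, Crebbp and Ep300. The 50 genes most like Mrtfb had a median of 12402.5 exon bases, those most like Mrtfa 8321.5 and those most like Srf 3781.5, against 4774.5 over all genes compared with Mrtfa or Mrtfb. The part of transcript length in these likenesses was not tested.

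The SRF target genes were read from 2 lists, 37 genes attributed to MRTF-SRF and 14 immediate early genes attributed to ternary complex factors with SRF. In the 250-base windows, 8 of 28 MRTF-SRF targets with a window held a CArG box (Actg1, Vcl, Myl9, Cnn2, Filip1l, Fhl1, Fhl2 and Lima1), a share of 28.6% against 1.62% of all 27025 symbols. Of the immediate early genes 1 of 9 with a window did, Egr2, a share of 11.1%. Both lists were chosen as SRF targets, so these shares describe the lists and not the treatments. With KCl in AT-3, 7 MRTF-SRF targets rose and 0 fell of 37, beside 3.08% and 1.75% of all genes, and the list's median change was 0.18 against −0.0040 for all genes. The counts were 10 and 1 without replicate 3 of the BMS204352 groups, 12 and 0 by DESeq2, and 16 and 0 at an unadjusted p under 0.05 by edgeR. Here and below, shares of all genes are those of edgeR's fit with all libraries at the adjusted threshold. List counts in any other setting have no share of that setting beside them and only describe the list. Filip1l rose from 13.4 ± 1.33 to 25.9 ± 3.02 CPM (log2 change 0.95 ± 0.11). The LIM protein Csrp1, the actin filament elongation factor Enah and the tropomyosin Tpm2 rose by 0.55, 0.33 and 0.61 on the log2 scale. The actins Acta2, Actb and Actg1 did not pass in AT-3, at 0.08 ± 0.12, 0.16 ± 0.13 and 0.03 ± 0.17. Against DMSO, KCl with NS11021 raised 9 of 37 and lowered 0 (3.66% and 1.37% of all genes), and 14 and 0 without replicate 3 of the BMS204352 groups. KCl with BMS204352 raised 6 and lowered 0 (7.26% and 5.88%), and 7 and 2 without those libraries. DESeq2 gave 12 and 0, and 8 and 0, for these comparisons.

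With KCl in E0771, 10 MRTF-SRF targets rose and 4 fell of 36 that passed the filter (Fhl1 did not), beside 17.8% and 18.6% of all genes, and the median was 0.11 against −0.0060 for all genes. Mical2, a monooxygenase that oxidises nuclear actin and so favours MRTF-A activity, changed most of the list, from 31.4 ± 1.07 to 140.2 ± 6.69 CPM (log2 change 2.17 ± 0.07, edgeR adjusted p = 5.26e-19). In AT-3 Mical2 was at 16.6 ± 0.316 CPM with DMSO and 15.1 ± 0.841 CPM with KCl, and the KCl effects differed by 2.29 ± 0.14 between the lines (edgeR adjusted p = 5.91e-13). Mical2 and Fhl2 stand both among the MRTF-SRF targets and among the regulators. Filip1l (1.18 ± 0.13) rose and the transgelin Tagln2 fell by 0.30 in E0771. Of the actins, Acta2 rose by 0.39 ± 0.13, Actg1 fell by 0.23 and Actb had −0.0081 ± 0.04. Without replicate 3 of the BMS204352 groups 15 targets rose and 4 fell. KCl with NS11021 raised 12 and lowered 2 against DMSO (19.6% and 19% of all genes), and KCl with BMS204352 raised 5 and lowered 11 (14% and 14.6%), or 6 and 8 without replicate 3 of the BMS204352 groups.

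With BMS204352 on top of KCl in E0771, the comparison in which Srf fell, 18 of 36 MRTF-SRF targets fell and 2 rose, beside 10.1% and 9.85% of all genes, and the median was −0.22 against 0.0050 for all genes. The counts were 18 and 1 without replicate 3 of the BMS204352 groups. Other measures moved with this step. The mitochondrial share of counts was 0.789% to 1.03% with KCl and BMS204352 and 0.678% to 0.739% with KCl. The 7 leukocyte markers, of which 3 reached 1 CPM in E0771, summed to 8.29 to 10.4 against 6.49 to 7.30 CPM, with Cd3e at 0 and Ptprc at no more than 0.142 CPM in these groups. The mesenchymal markers summed to 4115 to 4178 against 3859 to 4024 CPM. The part of these in the counts was not tested. The following genes were chosen after their values were seen. The matricellular Ccn2 fell by 2.14 on the log2 scale, from 8.29 ± 0.889 to 1.90 ± 0.145 CPM, and the myosin light chain Myl9 by 1.81, from 5.37 ± 0.322 to 1.54 ± 0.260 CPM. Acta2 fell by 0.89, from 115 ± 9.34 to 62.3 ± 7.34 CPM, Tpm1 by 0.49, Tpm4 by 0.35, the actin-binding Cald1 by 0.26 and Actb by 0.24. Wdr1, the gene whose levels were most like those of Srf, fell by 0.20. Likeness to Srf was computed over libraries that include these groups, so it adds no evidence to the falls of Wdr1, Actb, Tpm1 and Ccn2. Actg1 had 0.0027 ± 0.06. Tpm2 (0.23 ± 0.06) and the myosin heavy chain Myh9 (0.16 ± 0.05) rose. The 18 include the matricellular Thbs1, which was at no more than 0.423 CPM in these groups.

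Adding NS11021 to KCl gave 5 higher and 4 lower of 36, and 10 and 8 without replicate 3 of the BMS204352 groups, beside 9.59% and 7.66% of all genes in the fit with all libraries, and a median of 0.02. Both comparisons share the KCl libraries. Set directly against each other in E0771 with KCl, 15 targets were higher with NS11021 than with BMS204352 and 1 was lower, beside 3.92% and 1.03% of all genes, and the median difference was 0.21. The interaction of KCl and BMS204352 in E0771 passed for 4 of 36, all negative (0.569% of genes positive and 1.06% negative), and for 9 without replicate 3 of the BMS204352 groups. The 4 were Mical2, Myl9, Zyx and Pdlim5, at −0.70, −1.45, −0.63 and −0.35, named after their values were seen. The interaction of KCl and NS11021 in E0771 passed for 0 of 36 by edgeR, beside 0.217% of all genes, and for 1 by DESeq2. At an unadjusted p under 0.05 by edgeR, 1 was positive and 10 negative. Without replicate 3 of the BMS204352 groups this interaction passed for 4, all negative. The same step in AT-3, KCl with BMS204352 against KCl, had 0 higher and 2 lower of 37 by edgeR, beside 0.731% and 0.508% of all genes, 0 and 3 by DESeq2, and 1 and 10 at an unadjusted p under 0.05. These were Cnn1 (−0.90 ± 0.18) and Tpm1 (−0.46 ± 0.08), also named after their values were seen.

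**Figure D4:**
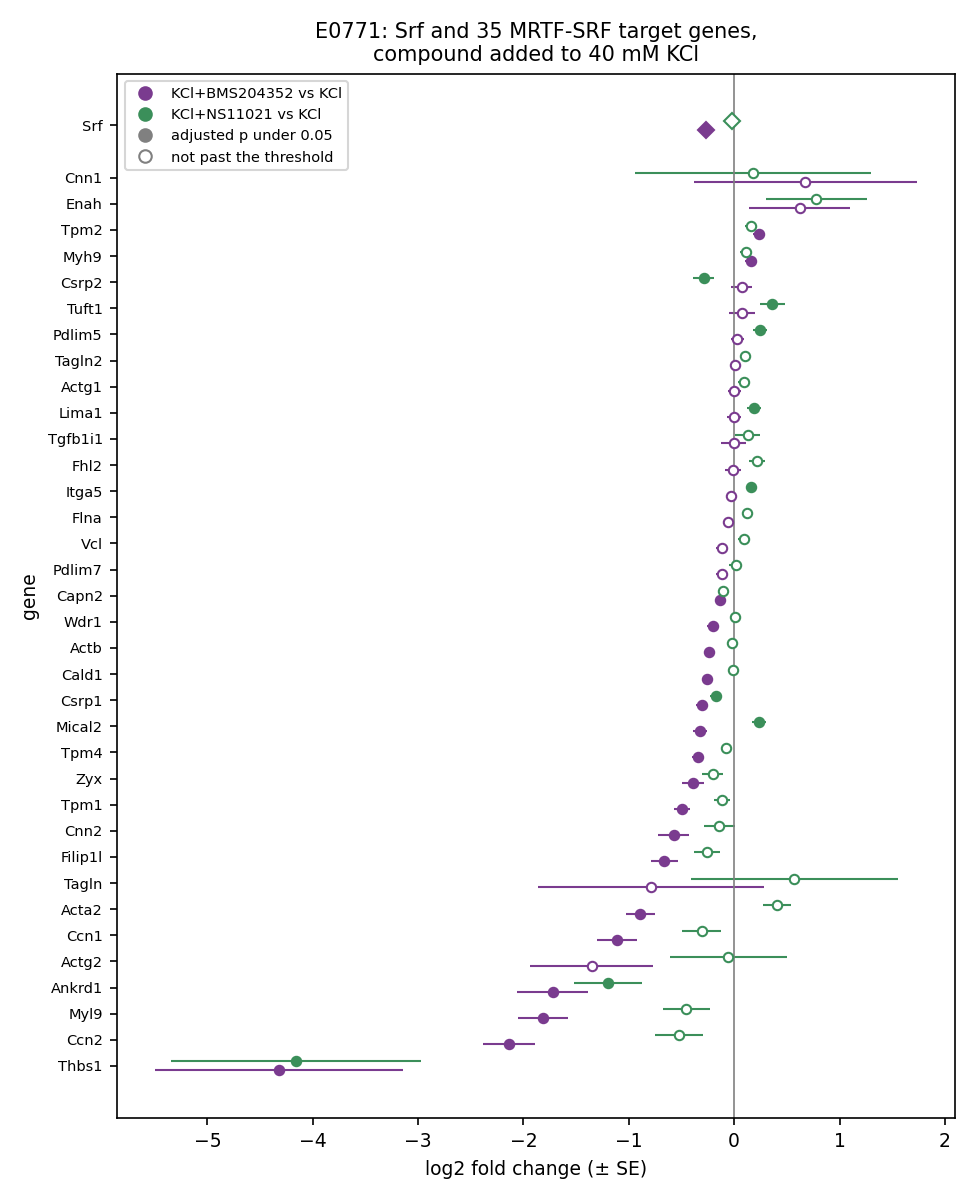
Log2 fold changes (± SE) of Srf and of 35 of the 36 tested MRTF-SRF target genes in E0771 when BMS204352 or NS11021 was added to 40 mM KCl; filled points passed an adjusted p of 0.05. With BMS204352, 17 of those drawn and Srf lie to the left of 0 as filled points, and with NS11021, 4 do. Thbs1 was near the detection limit, at no more than 0.423 CPM in these E0771 libraries.

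Without KCl in E0771, NS11021 raised 12 MRTF-SRF targets and lowered 2 of 36, beside 12.8% and 13.5% of all genes, and BMS204352 raised 5 and lowered 6, beside 11.3% in each direction, or 6 and 7 without replicate 3 of the BMS204352 groups. With NS11021 the smooth muscle actin Acta2 rose from 88.1 ± 1.54 to 155 ± 5.15 CPM (0.81 ± 0.13), Mical2 by 0.48, the LIM protein Pdlim5 by 0.43 and Tagln2 by 0.18. With BMS204352 Ccn2 fell by 1.74 and Actb by 0.21, and Pdlim5 rose by 0.39. In AT-3, 0 of 37 passed with NS11021 by edgeR or DESeq2, beside 0.0677% and 0.00677% of all genes, while 6 were higher and 0 lower at an unadjusted p under 0.05. BMS204352 in AT-3 raised the calpain Capn2 (0.31 ± 0.09) and lowered Tpm1 and the actin-binding Lima1, by 0.38 and 0.23, beside 3.28% and 2% of all genes, and without replicate 3 of the BMS204352 groups 0 of 37 passed.

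Of the immediate early list, 10 of 14 rose and 0 fell with BMS204352 in AT-3, beside 3.28% and 2% of all genes, with a median change of 0.90 against −0.0017 for all genes. There were 8 and 0 without replicate 3 of the BMS204352 groups. The zinc finger factor Egr2 rose from 4.49 ± 0.786 to 12.2 ± 3.13 CPM (1.45 ± 0.23), Ier2 by 0.70 ± 0.09, the AP-1 subunit Junb by 0.56 ± 0.10 and Ier3 by 1.22 ± 0.20. With KCl, AT-3 had 2 of 14 higher and 0 lower, beside 3.08% and 1.75% of all genes: the phosphatase Dusp1 (1.36 ± 0.22) and Arc (0.86 ± 0.21), and 4 higher and 3 lower without replicate 3 of the BMS204352 groups. In E0771, KCl raised 4 of 13 and lowered 4, beside 17.8% and 18.6% of all genes. There Ier3 (1.67 ± 0.06), Arc (1.35 ± 0.11) and Dusp1 (2.37 ± 0.12) rose and Klf10 fell by 0.19. With NS11021 in E0771, 1 of 13 rose and 4 fell, beside 12.8% and 13.5% of all genes, and the 4 were the survival factor Mcl1, Ier2, Arc and Klf10, by 0.32, 0.25, 0.38 and 0.24. With BMS204352 in E0771 3 rose and 3 fell, beside 11.3% in each direction (2 and 3 without replicate 3 of the BMS204352 groups), with Mcl1, Klf10 and Arc falling by 0.33, 0.37 and 0.40 and Ier3 rising by 0.28. In AT-3, 0 of 14 passed with NS11021 by edgeR or DESeq2, beside 0.0677% of all genes higher and 0.00677% lower. At an unadjusted p under 0.05, 5 were higher, and 2 passed without replicate 3 of the BMS204352 groups.

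Of the other SRF cofactors, the ternary complex factors Elk3 and Elk4 rose with KCl in E0771, by 0.57 ± 0.05 and 0.38 ± 0.06. In that comparison 17.8% of all genes rose. With KCl in AT-3, where 3.08% of all genes rose and 1.75% fell, 0 of 3 tested passed by edgeR. There 1 did at an unadjusted p under 0.05, by DESeq2, or without replicate 3 of the BMS204352 groups. Elk3 rose by 0.15 with NS11021 in E0771, where 12.8% of all genes rose.

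Among 20 genes that act on actin monomers and filament assembly, KCl in AT-3 raised 1 and lowered 0, beside 3.08% and 1.75% of all genes. That gene was Tmsb4x, the actin monomer sequesterer thymosin beta 4, with a log2 change of 0.33 ± 0.08. In E0771, KCl raised 4 and lowered 3 of 20, a share near the 17.8% and 18.6% of all genes. The GTPase Rhob fell by 0.49, from 297 ± 10.4 to 209.6 ± 10.1 CPM, and the cofilin kinase Limk1 by 0.61, while the kinase Rock1 rose by 0.29 ± 0.05 and the cofilin phosphatase Ssh1 by 0.42 ± 0.07. With NS11021 in E0771, 4 rose and 1 fell, beside 12.8% and 13.5%, with the formin Diaph2 (0.33 ± 0.07), the guanine nucleotide exchange factor Arhgef2 (0.44 ± 0.09) and Tmsb4x (0.40 ± 0.11) higher and the actin-binding profilin Pfn1 falling by 0.15. With BMS204352 in E0771, 3 rose and 3 fell, near the background of 11.3% in each direction (2 and 3 without replicate 3 of the BMS204352 groups), with Diaph2 (0.34 ± 0.07) and Arhgef2 (0.41 ± 0.09) higher and Pfn1 and cofilin, Cfl1, falling by 0.18 and 0.15. In AT-3 BMS204352 raised Arhgef2 by 0.36 and no other of the 20 passed, beside 3.28% of all genes higher and 2% lower. Without replicate 3 of the BMS204352 groups 0 passed.

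Among regulators of MRTF and SRF, 18 of 20 were tested in AT-3 and 16 in E0771. KCl lowered 1 in AT-3, the RNA helicase Ddx19b, by 0.26 (1.75% of all genes fell), and raised 6 and lowered 3 of 16 in E0771, where 17.8% and 18.6% of all genes rose and fell. The actin monooxygenase Mical1 rose there by 0.96 ± 0.15 and the actin-binding Phactr4, an RPEL protein, by 0.30 ± 0.05, and emerin, Emd, of the nuclear envelope fell by 0.23. NS11021 raised 4 and lowered 4 in E0771, beside 12.8% and 13.5% of all genes (4 and 7 without replicate 3 of the BMS204352 groups), with the LIM protein Fhl2 at 0.34 ± 0.08, Mical1 at 0.57 ± 0.15 and the importin Kpnb1 falling by 0.13. BMS204352 raised 3 and lowered 7, beside 11.3% in each direction (2 and 5 without replicate 3 of the BMS204352 groups), with the lamin gene Lmna, the helicase Ddx19a and the importin Kpna2 falling by 0.21, 0.20 and 0.14.

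Genes of channels that the compounds are known to open differed in level. Kcnma1 had 0.152 ± 0.0836 CPM in AT-3 and 0.0325 ± 0.0563 CPM in E0771 with DMSO. Kcnq5, a KCNQ channel subunit, had 4.52 ± 0.449 and 19.8 ± 1.49 CPM. Kcnq5 rose with BMS204352 in both lines, by 0.72 ± 0.20 in AT-3 and 0.44 ± 0.13 in E0771 (edgeR adjusted p = 0.0403 and 0.0206), but without replicate 3 of the BMS204352 groups 0 channel genes passed with BMS204352 in either line. Kcnq5 fell by 0.90 with KCl in E0771. Channel activity was not measured here.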

How the data were processed

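The labels' protocols name column-purified total RNA and NuGen mRNA libraries. The authors deposited a table of raw whole-number counts, made per the submitters' processing notes with STAR, GRCm38 and featureCounts. No versions, strand setting or annotation release are given there. Each of 36 columns matched a sample title and 0 were unused. Of 32287 IDs, 2 that are not mouse IDs, with 6 counts, were dropped. Symbols came from GENCODE vM21 and promoter windows from RefSeq.

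CPM, fold changes and tests were computed here, with edgeR 4.0.16 and limma 3.58.1 in R 4.3.3, and DESeq2 1.42.0 as an alternative. Genes were kept with filterByExpr (minimum count 10, minimum total 15) and scaled by TMM. A quasi-likelihood model with a robust spread was fitted by treatment group, to 18 libraries for a line and to all 36 for differences between lines. Adjustment was by Benjamini-Hochberg over all genes tested in a comparison, at 0.05. Values after ± are the SE of log2 changes or the SD of 3 libraries. Intervals are 95% intervals from the fit's SE and total degrees of freedom, the residual ones plus those of the fit's prior. The common coefficient of variation between replicates was 0.116 in AT-3 and 0.0707 in E0771. The steps were tested on simulated data. Counting error alone is given beside the depths.

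The 3 genes, the gene lists, the comparisons and the alternatives were chosen with earlier results of these data known. Named genes were the 3 members, up to 4 of each list with the smallest adjusted p among those that passed for KCl and each compound against DMSO, the 5 genes most like each member, Mical2, the actins Acta2, Actb and Actg1, and Kcnma1 and Kcnq5. Some genes that this rule names are counted but not reported here by name. Likeness was Pearson's correlation of log2 (CPM + 0.5) among genes whose mean log2 CPM reached 2 in both lines.

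The alternatives used DESeq2 for scaling or testing, no filter, halved counts, the replicate number as a block, or only the compared libraries. Others left out replicate 3 of the BMS204352 groups, or each replicate in turn. Halved counts were tried because 84.5% of counts from 1 to 10 were even, so the counting errors given may be too small. List counts without replicate 3 of the BMS204352 groups were added after seeing the data.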

Additional observations from a re-analysis of the deposited data

Results flagged for a closer look

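No effect of a treatment on Mrtfa, Mrtfb or Srf differed between the lines at an adjusted p under 0.05, although 9.13%, 3.99% and 5.01% of genes did for KCl, NS11021 and BMS204352. The list genes below did, by edgeR's test of the difference itself in the fit to all 36 libraries, and each value is the log2 effect in E0771 minus that in AT-3. For KCl the difference was 2.29 ± 0.14 for Mical2, 1.17 ± 0.22 for Ier3, 1.01 ± 0.26 for Dusp1 and 0.39 ± 0.11 for Elk4, all higher in E0771. It was −1.08 ± 0.25 for Kcnq5, −0.90 ± 0.14 for Tpm2 and −0.44 ± 0.10 for Csrp1, all lower in E0771. Tpm2 rose with KCl in AT-3 and fell in E0771, by 0.28.

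For NS11021 the difference was −0.53 ± 0.10 for Ier2 and −0.32 ± 0.08 for Mcl1. For BMS204352 it was −1.65 ± 0.43 for Ccn2, −1.18 ± 0.27 for Lmna, −0.85 ± 0.16 for Klf10, −0.84 ± 0.10 for Ier2, −0.95 ± 0.22 for Ier3, −0.57 ± 0.11 for Junb and −0.45 ± 0.08 for Mcl1. The BMS204352 differences include the replicate 3 libraries that stood apart. Without those, 0 of 37 MRTF-SRF targets passed the threshold with a lower effect in E0771 than in AT-3, so the call for Ccn2 was lost. Of 14 immediate early genes, 8 passed with a lower effect, against 7 with all libraries. Of all genes, 5.01% passed in either direction with all libraries. That was 800 genes, against 141 to 1313 under the alternatives other than leaving out 1 replicate. Lmna ran from 881 to 1900.5 CPM over the 3 AT-3 BMS204352 libraries.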

How the results depend on the processing

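Of 78 results on Mrtfa, Mrtfb and Srf, 12 passed, over comparisons where 0% to 74.5% of all genes passed. Of the 12, 8 kept their direction and their side of the threshold in every alternative. Log2 changes and adjusted p follow for the others. With the replicate number as a block, which the labels do not tie to a shared day or culture, same-numbered libraries correlated over 0.1 in every pair for BMS204352 with KCl+BMS204352 of AT-3 and for no other groups. Under that replicate block Srf in E0771 with BMS204352 (−0.15, 0.0390), Srf for NS11021 against BMS204352 in E0771 (0.19, 0.0452), Mrtfa with KCl+BMS204352 in AT-3 (0.30, 0.0418) and the line difference of the BMS204352 effect on Mrtfa (0.39, 0.0498) passed. Without the filter the first 2 passed at −0.14 (0.0379) and 0.20 (0.00948), as did the E0771 interaction of KCl and BMS204352 on Mrtfa (−0.29, 0.0328). Mrtfa with KCl+BMS204352 in AT-3 also passed with halved counts (0.30, 0.0498), with DESeq2 (0.30, 0.0350) and without replicate 3 of the BMS204352 groups (0.41, 0.000363). Mrtfa in E0771 with BMS204352 was lost in a fit to the compared libraries (0.22, 0.0604) and without replicate 3 of the BMS204352 groups (0.14, 0.113). The cause was not tested.

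Values near 0 changed sign. Srf with BMS204352 in AT-3 became −0.0033 with DESeq2 size factors and with DESeq2, −0.0025 without the filter, −0.0022 with the replicate block, −0.00065 in the compared libraries and −0.081 without replicate 3 of the BMS204352 groups. Srf with KCl+NS11021 in E0771 became 0.0015 with DESeq2 size factors, 0.0014 with DESeq2, 0.00097 with halved counts, 0.0019 in the compared libraries and 0.00016 without replicate 3 of the BMS204352 groups. The E0771 interaction of KCl and NS11021 on Mrtfb became −0.00079 without the filter, and Mrtfa with NS11021 in AT-3 −0.0021 in the compared libraries. Without replicate 3 of the BMS204352 groups Mrtfb with BMS204352 in E0771 became −0.025, Mrtfb for KCl+NS11021 against KCl+BMS204352 in E0771 0.013, and the line difference of the BMS204352 effect on Srf 0.012.

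Leaving out each replicate in turn ended or made a call for these results. Mrtfa ran from 0.38 to 0.50 for KCl+NS11021 and from 0.23 to 0.41 for KCl+BMS204352 against DMSO in AT-3, from 0.14 to 0.28 with BMS204352 in E0771, and from 0.29 to 0.49 for the line difference of the BMS204352 effect. Mrtfb ran from 0.14 to 0.23 with KCl in E0771 and from −0.33 to −0.030 between the lines with DMSO. Srf in E0771 ran from −0.19 to −0.075 with BMS204352 and from 0.19 to 0.30 for KCl+NS11021 against KCl+BMS204352. Other ranges spanned 0. For Mrtfa they were −0.058 to 0.064 (NS11021, AT-3), −0.16 to 0.056 (interaction of KCl and BMS204352, AT-3) and −0.056 to 0.046 (KCl+NS11021 against KCl, E0771). For Mrtfb in AT-3 they were −0.21 to 0.12 (KCl), −0.29 to 0.047 (KCl+BMS204352 against KCl), −0.20 to 0.098 (KCl+NS11021) and −0.17 to 0.17 (KCl+NS11021 against KCl). For Mrtfb elsewhere they were −0.043 to 0.28 (line difference, NS11021), −0.026 to 0.11 (BMS204352, E0771), −0.036 to 0.0093 (KCl+NS11021 against KCl+BMS204352, E0771) and −0.041 to 0.075 (interaction of KCl and NS11021, E0771). For Srf in AT-3 they were −0.081 to 0.074 (BMS204352), −0.042 to 0.21 (KCl), −0.16 to 0.074 (KCl+BMS204352), −0.24 to 0.0085 (KCl+BMS204352 against KCl), −0.089 to 0.10 (KCl+NS11021), −0.20 to 0.050 (KCl+NS11021 against KCl), −0.067 to 0.17 (KCl+NS11021 against KCl+BMS204352) and −0.24 to 0.0094 (interaction of KCl and BMS204352). For Srf elsewhere they were −0.18 to 0.070 and −0.11 to 0.048 (line differences, KCl and NS11021), and, in E0771, −0.017 to 0.037 (KCl), −0.052 to 0.033 (KCl+NS11021) and −0.069 to 0.016 (KCl+NS11021 against KCl).

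Counts of genes past the threshold moved more. KCl in AT-3 gave 714 genes, 667 to 1345 under the other alternatives and 393 to 507 without 1 replicate. BMS204352 in AT-3 gave 779, 10 to 1455 and 146 to 1743. KCl+BMS204352 against KCl gave 183 in AT-3 (178 to 620, and 20 to 214) and 2663 in E0771 (2460 to 2939 under the alternatives), and KCl in E0771 gave 4860 (4808 to 5659).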
